A study of Oryza sativa Indica Group with 11 samples.

Results

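The arrays compared here measured how the salt-tolerant rice line FL478 responded to salt in its crown and growing point. The comparison took the 3 FL478 arrays labelled salt stressed against the 3 labelled control, 6 of the 11 arrays of the series, and chose them by their labels alone. FL478 is an indica recombinant inbred line from the cross of the salt-sensitive cultivar IR29 with the tolerant landrace Pokkali, and its use as 1 inbred line means that the values describe 1 genotype. The control group was FL478 without the salt treatment, and the treated group was FL478 under salt stress. The labels used here give neither the salt dose and duration nor the age of the plants. About 12 plants were dissected for each sample, per the labels, and 1 biotin-labelled RNA sample went on each rice array. The other 5 arrays, of IR29, were not part of the contrast. They entered the quantile normalization, the choice of the brightest probe set of each gene and the estimate of the spread between arrays.

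Sodium that reaches the shoot with the water stream harms growing tissue, and grasses limit it with HKT transporters that take sodium back out of the xylem sap. Salt also withdraws water from cells, which raises the hormone abscisic acid (ABA). ABA acts through receptors, protein phosphatases of class 2C, SnRK2 kinases and bZIP transcription factors, which switch on genes for dehydrins and other protective proteins. Young leaves and meristems of the crown depend on imported sucrose, which is moved by SUT and SWEET transporters and split by invertases and sucrose synthases.

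The deposited values were signal intensities, 1 for each probe set and array, and every level below is a log2 value, taken after 16 was added to the intensity as a pseudocount, and quantile normalized, so a probe set with no signal lies near 4. Levels of different probe sets cannot be set against each other. The trimmed mean was 500.1 on each array, and median intensities of the FL478 arrays ran from 48.2 to 67.5, with 24.7% to 30.4% of the probe sets under an intensity of 16. Pearson correlations between the 6 arrays ran from 0.957 to 0.970 across probe sets. Within FL478 the first component of a principal component analysis held 24.4% of the variance and set control replicate 3 (-98.2) apart from control replicate 2 (70.0). The second, with 21.1%, set salt replicate 2 (105.1) apart from the others (-36.8 to -9.24), and the third, with 19.2%, set control replicate 1 (-92.4) apart, so none of these 3 separated salt from control. The 3' over 5' ratio of the cyclophilin control, a sign of RNA quality given here in log2, was 0.41, 0.73 and 0.88 in the controls and 1.05, 1.24 and 0.69 under salt, and the groups overlapped. The growing point is marked by the meristem gene OSH1, which lay at 12.18, 12.73 and 12.14 in the controls and at 12.30, 12.07 and 12.29 under salt. Nothing in the labels says that the arrays of a group came from separate cultures, so the p-values below measure the spread between these samples, which may be technical. In such bulk tissue a lower level can mean fewer cells of a type or less RNA per cell, and these cannot be told apart.

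In the quantile-normalized values most transcripts of the FL478 crown lay close to their control level under salt, and 5 probe sets passed the test. Of 57258 probe sets, 4 rose, which is 0.00699%, and 1 fell, which is 0.00175%, together 0.00873%, at an adjusted p under 0.05 (limma, Benjamini-Hochberg adjustment over all probe sets). The median log2 change over all 17905 genes, each taken by its brightest probe set, was -0.0021, and the middle 50% of genes lay between -0.15 and 0.14. Of these genes 2 rose (0.0112%) and 1 fell (0.00559%), together 0.0168%, and 49.7% of them, like 50.6% of the probe sets, had a log2 change above 0. Quantile normalization gives every array the same distribution, so a median near 0 and an even split were largely set by it. With each array centred on its median instead, the median change of genes was -0.12. The 5 called probe sets were those for the sodium transporter HKT1;5, for the locus-number genes LOC4339527 and LOC4324999, and 2 for which the annotation gives no gene.

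HKT1;5 (LOC4327757, chromosome 1), which takes sodium back from the xylem sap and so keeps it out of the shoot, was the one transport gene called. Its level was 6.58, 7.29 and 7.002 in control replicates 1, 2 and 3, and 9.36, 9.89 and 9.10 in salt replicates 1, 2 and 3. Every salt array lay above every control array, and the gap between the groups was 1.81, wider than the SD within either group (0.36 and 0.41, n = 3 each). HKT1;5 rose by 2.49 ± 0.31 (SE) on the log2 scale, 5.63-fold (limma, adjusted p = 0.0475). The log2 change ran from 2.28 to 2.68 when any 1 FL478 array was left out. The call stood under 3 of 16 other ways to process or fit the arrays, with adjusted p-values of 0.0185 to 0.303, and it was lost without any 1 of the 6 FL478 arrays.

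The largest called rise belonged to the probe set OsAffx.26317.1.S2_at, for which the annotation used here gives no gene. Its level was 6.66, 7.64 and 7.52 in the controls and 9.86, 10.63 and 10.56 under salt. The lowest salt array lay 2.21 above the highest control array. The change was 3.07 ± 0.29 on the log2 scale, 8.42-fold (limma, adjusted p = 0.0107), and the call stood under 11 of the 16 alternatives. It was lost without control replicate 3 (adjusted p = 0.0526), salt replicate 2 (0.113) or salt replicate 3 (0.155).

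The second unnamed probe set, Os.51184.1.S1_at, stood at 8.27, 7.69 and 7.82 in the controls and at 9.73, 9.86 and 9.85 under salt. Its salt arrays lay within 0.13 of each other. It rose by 1.88 ± 0.23, 3.69-fold (limma, adjusted p = 0.0475), and stayed called under 4 of 16 alternatives, none of which left out an array.

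LOC4339527 on chromosome 5 was measured at 9.44, 10.19 and 9.65 in the controls and at 11.30, 11.33 and 11.65 under salt. The groups did not overlap. It rose by 1.66 ± 0.18, 3.17-fold (limma, adjusted p = 0.0193), and stayed called under 7 of 16 alternatives, among them the one without control replicate 2 (adjusted p = 0.00232). Its second, dim probe set, with group means of 4.50 and 4.82, gave a change of 0.32 ± 0.41.

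LOC4324999 on chromosome 1 was the single probe set called lower. It lay at 10.91, 11.16 and 11.19 in the controls and at 10.07, 10.18 and 9.96 under salt, with every salt array below every control array. It fell by 1.02 ± 0.13 on the log2 scale, which made the control level 2.03 times the salt level (limma, adjusted p = 0.0475), and the call stood under 4 of 16 alternatives, none of which left out an array.

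**Figure D1:**
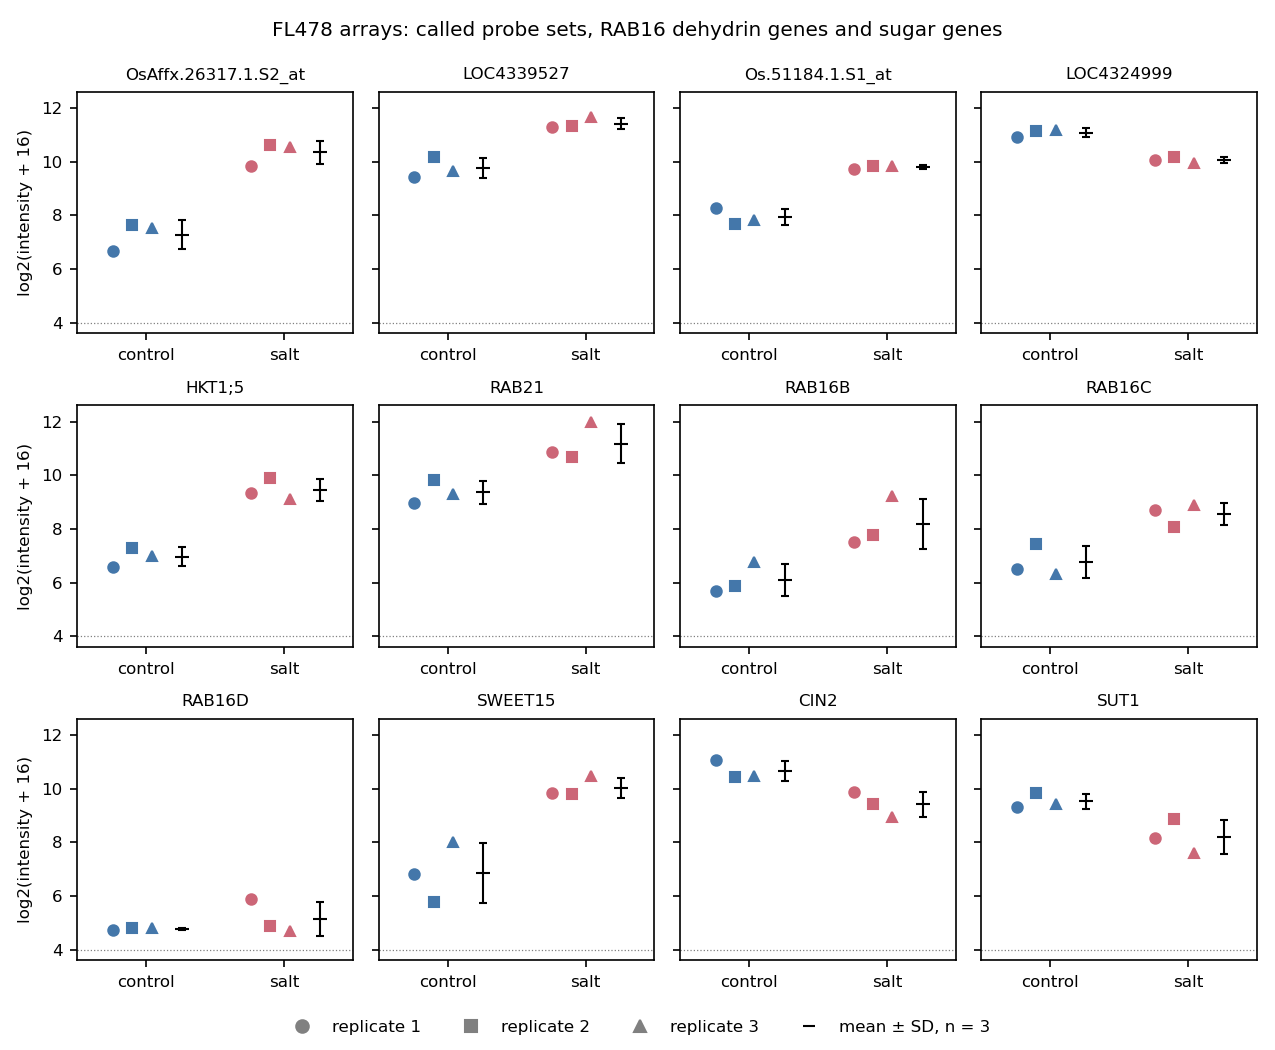
Level in each FL478 array, as log2 of the intensity plus 16, for the 5 called probe sets, the 4 RAB16 dehydrin genes (RAB21 is RAB16A) and 3 sugar genes. Points are single arrays and black marks are the mean ± SD (n = 3), and the dotted line at 4 is the level of an intensity of 0. In 11 of the 12 panels no salt array overlaps a control array, and RAB16D is the exception. The called probe sets and the sugar genes were chosen by their difference in these same arrays. Of all probe sets, 10.3% were separated.

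Below the call threshold, 1607 probe sets (2.81%) were higher and 1493 (2.61%) lower at an unadjusted p under 0.05, together 5.41% of those tested. By its definition, a limit of 0.05 passes about that share of probe sets that do not differ. The scaling of the arrays moved the split between higher and lower. Of the 3100 probe sets at an unadjusted p under 0.05 in the quantile-normalized values, 51.8% were higher. The share was 63.0% of 3166 in the values as deposited and 30.7% of 2875 when each array was centred on its median. That centring moved the median change of all genes to -0.12. In 3145 probe sets (5.49%) every salt array lay above every control array, and in 2763 (4.83%) every salt array lay below, together 10.3%. With 3 arrays in each group, shares close to these arise when nothing differs, so separation alone does not mark a response to salt. As a share of the separated probe sets, the higher ones made up 53.2%, or 65.4% as deposited and 31.3% after centring on the median. At the level of genes, 479 (2.68%) were higher and 455 (2.54%) lower at an unadjusted p under 0.05, together 5.22%, and 942 (5.26%) were separated upward and 871 (4.86%) downward, together 10.1%. Among the 13952 genes with a mean level of at least 7 in the higher group, 753 were separated upward and 678 downward. Of the bright ones, 33 and 27 differed by more than 1.0 on the log2 scale, and 9 and 11 by more than 1.5. The 100 probe sets with the lowest p-values comprised 57 higher and 43 lower, and 50 of them had no gene in the annotation.

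The ABA-responsive dehydrins of the RAB16 cluster stood high in the ranking of separated genes. These small, water-loving proteins protect membranes and other proteins in drying cells. RAB21, also known as RAB16A, lay at 8.97, 9.81 and 9.32 in the controls and at 10.87, 10.66 and 12.00 under salt. RAB16B lay at 5.68, 5.86 and 6.78 against 7.52, 7.76 and 9.23. RAB16C lay at 6.51, 7.44 and 6.31 against 8.70, 8.08 and 8.88. In these 3 genes the groups did not overlap, and salt replicate 3 was the highest array. The log2 changes were 1.81 ± 0.34 for RAB21, 2.07 ± 0.45 for RAB16B and 1.80 ± 0.33 for RAB16C, with adjusted p-values of 0.488, 0.505 and 0.488, so none passed the test. A second probe set of RAB21 gave 1.53 ± 0.27. Without any 1 array the changes ran from 1.40 to 2.08, from 1.54 to 2.42 and from 1.59 to 2.14. RAB16D stayed dim, at 4.72, 4.80 and 4.79 in the controls and at 5.88, 4.87 and 4.70 under salt, and salt replicate 1 alone stood above the controls by more than 0.1. Its change was 0.38 ± 0.37, and 0.02 at the lowest without 1 array.

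The 4 genes lie together on chromosome 11 in the RefSeq gene order of assembly ASM3414082v1. RAB16D and RAB16C are neighbours, as are RAB16B and RAB21, with 2 genes between RAB16C and RAB16B. Their coding sequences resemble each other, so part of a signal may come from a related transcript, which was not tested.

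Of the 18 measured genes of the list for ABA metabolism, dehydrins and LEA proteins, none was called. At an unadjusted p under 0.05 there were 7 higher (38.9%) and 0 lower, beside 2.68% and 2.54% of all genes, and 14 lay above 0. The median change was 0.26, and 0.15 after centring on the median. The mean of the list, each gene taken relative to its own mean, was -0.27, -0.28 and -0.19 in the controls and 0.19, 0.0042 and 0.54 under salt, so the salt arrays lay above the control arrays, with salt replicate 2 nearest to them. The count of 7 dropped to 4 at the lowest when 1 array was left out. Beside the 3 RAB16 genes it held BZIP23, ABA8OX2, TRAB1 and ABA1, of which the last 3 were named after their values were seen. BZIP23, a bZIP factor that promotes ABA responses, stood at 9.78, 9.62 and 10.17 in the controls and at 10.38, 10.50 and 10.76 under salt, a change of 0.69 ± 0.16. The change was 0.68 ± 0.26 for ABA8OX2, an ABA 8'-hydroxylase that breaks the hormone down, 0.61 ± 0.28 for ABA1, the zeaxanthin epoxidase of its synthesis, and 0.33 ± 0.15 for the bZIP factor TRAB1. Of the other 11 members, 7 lay above 0 and 4 below. The highest was rab25, at 0.75 ± 0.42 with overlapping groups, followed by RAB16D. The dehydrin Dhn1 differed by -0.08 ± 0.16, the late embryogenesis gene EM by 0.09 ± 0.33, and SALT, a lectin gene known as salt-inducible in rice, by -0.36 ± 0.19.

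In the list of ABA receptors, class 2C phosphatases and SnRK2 kinases, 3 of 66 genes were higher (4.55%) and 1 lower (1.52%) at an unadjusted p under 0.05. The shares over all genes were 2.68% and 2.54%. None of the list was called, and its median change was 0.0057. The phosphatase gene PP2C08 led it, at 7.81, 7.47 and 8.47 in the controls and at 8.90, 9.30 and 9.24 under salt. Its groups did not overlap, and its change was 1.23 ± 0.27 (limma, adjusted p = 0.516). PP2C30 differed by 0.83 ± 0.30, PP2C67 by 0.38 ± 0.15 and PP2C10 by -0.61 ± 0.25. The salt and control arrays of PP2C30 and of PP2C67 were separated by 0.01 only. Those of PP2C10 overlapped, and its change was -0.30 without salt replicate 2.

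Sugar genes stood at both ends of the ranking. SWEET15, a sugar exporter, had the largest log2 difference of any gene named here and lay at 6.81, 5.78 and 8.01 in the controls and at 9.83, 9.80 and 10.47 under salt. The controls spread more widely (SD 1.12) than the salt arrays (SD 0.38), and the lowest salt array lay 1.79 above the highest control array. The log2 change was 3.17 ± 0.55 (limma, adjusted p = 0.356), and 2.63 to 3.76 without any 1 array.

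The genes CIN2, SUT1 and HXK6, which handle arriving sugar, lay lower in every salt array. The cell-wall invertase CIN2 (GIF1), which splits sucrose outside the cell, lay at 11.08, 10.42 and 10.48 in the controls and at 9.89, 9.44 and 8.93 under salt, a change of -1.24 ± 0.26. The sucrose-proton symporter SUT1 lay at 9.34, 9.84 and 9.42 against 8.16, 8.87 and 7.59, a change of -1.33 ± 0.30. The hexokinase HXK6, an enzyme and sugar sensor, lay at 9.28, 9.07 and 9.15 against 8.19, 8.25 and 7.65, a change of -1.14 ± 0.28. Their adjusted p-values were 0.488, 0.525 and 0.644 (limma), so none passed the test. The changes kept their sign without any 1 array, an outcome largely set by choosing genes whose groups did not overlap. The sucrose synthase genes SUS6 and SUS4 differed in sign, at -0.43 ± 0.11 for SUS6 and 0.64 ± 0.27 for SUS4, each with groups that did not overlap. SWEET11 differed by -0.64 ± 0.24 with overlapping groups and the dim SUT5 by -1.08 ± 0.42.

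Of the 52 measured sugar genes, 2 were higher (3.85%) and 6 lower (11.5%) at an unadjusted p under 0.05, beside 2.68% and 2.54% of all genes. Of these 52, 7 were separated downward (13.5%, beside 4.86% of all genes) and 3 upward (5.77%, beside 5.26%), and none was called. The median change was -0.0159, with 25 genes above 0, and the list means of the salt and control arrays overlapped. The sucrose synthases SUS1 and Sus2 differed by 0.01 ± 0.10 and 0.05 ± 0.13, and SWEET1A by -0.02 ± 0.16.

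**Figure D2:**
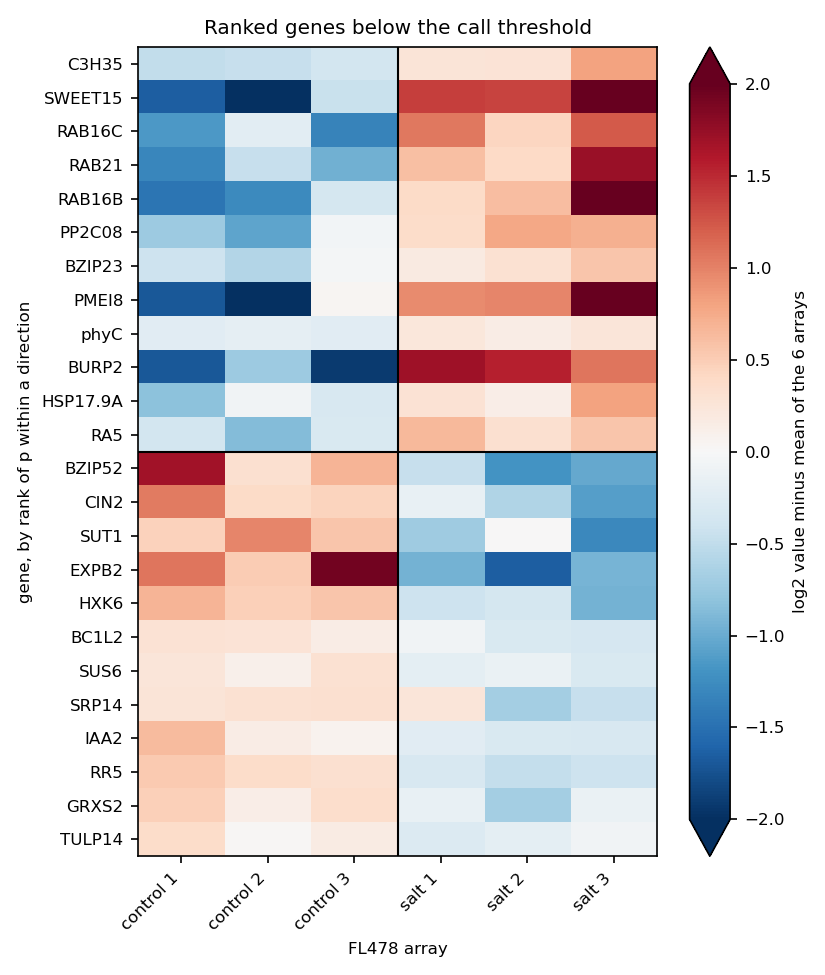
Ranked genes with a descriptive name that were not called but separated every salt array from every control array, and had a mean level of at least 7 in the higher group, 12 higher and 12 lower, ordered by p within each direction. Colour is the log2 level in an array minus the mean of the 6 FL478 arrays. RAB21 is RAB16A.

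The other genes that ranked high with separated groups and a mean level of at least 7 had varied roles. Among the higher genes that had a descriptive name and were not called, the CCCH zinc finger gene C3H35 stood first. It lay at 10.77, 10.81 and 10.89 in the controls and at 11.51, 11.54 and 12.07 under salt. Its change of 0.89 ± 0.14 (limma, adjusted p = 0.182) was matched in sign by its other probe sets, at 0.84 ± 0.31 and 1.17 ± 0.38. PMEI8, a pectin methylesterase inhibitor of the cell wall, lay at 9.19, 8.58 and 10.92 in the controls and at 11.82, 11.85 and 12.90 under salt, a change of 2.63 ± 0.59. Replicate 3 was the highest array of both its groups. BURP2, a BURP-domain protein, lay at 7.41, 8.37 and 7.19 in the controls and at 10.80, 10.66 and 10.17 under salt, a change of 2.89 ± 0.72, and its second probe set gave 1.00 ± 0.43. The red-light receptor phyC lay at 10.82, 10.87 and 10.83 in the controls and at 11.28, 11.20 and 11.30 under salt, a small change of 0.42 ± 0.10. RA5, a seed allergen related to alpha-amylase inhibitors, differed by 1.02 ± 0.28, and the small heat shock protein HSP17.9A by 0.81 ± 0.21. No gene of this paragraph passed the test.

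Among the lower genes of this ranking with a descriptive name, the bZIP transcription factor BZIP52 came first. It lay at 10.12, 8.76 and 9.12 in the controls and at 7.99, 7.25 and 7.43 under salt, a change of -1.78 ± 0.36 (limma, adjusted p = 0.488). The beta-expansin EXPB2, of a family that loosens grass cell walls, lay at 7.65, 7.09 and 8.51 against 5.63, 4.94 and 5.65, a change of -2.35 ± 0.56. Its salt arrays were close to the level of the pseudocount, and the change ran from -2.91 to -1.55 over the alternatives. The remaining lower genes of this ranking differed less. They were RR5, a cytokinin response regulator (-0.81 ± 0.26), the glutaredoxin GRXS2 (-0.64 ± 0.21), SRP14, a subunit of the signal recognition particle (-0.60 ± 0.18), the auxin repressor IAA2 (-0.57 ± 0.17), the COBRA-like wall gene BC1L2 (-0.47 ± 0.13) and the Tubby-like gene TULP14 (-0.36 ± 0.12). In SRP14 the groups were 0.02 apart, with salt replicate 1 at 11.69 beside the lowest control at 11.71. Their adjusted p-values ran from 0.772 to 0.901.

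Genes known only by a locus number included some of the highest ranks. LOC4339998 on chromosome 6 missed the threshold narrowly, at 10.47, 10.64 and 10.27 in the controls and at 11.68, 11.51 and 11.48 under salt, a change of 1.09 ± 0.14 (limma, adjusted p = 0.0502). It passed under 4 of the 16 alternatives. LOC9268661 on chromosome 2 lay at 10.83, 11.001 and 10.46 against 9.72, 9.71 and 9.72, a change of -1.04 ± 0.15 (limma, adjusted p = 0.107), while its other, dimmer probe set gave 0.24 ± 0.41. The other higher genes were LOC4335330 (1.11 ± 0.19), LOC4344351 (1.09 ± 0.22) and LOC4331796 (0.74 ± 0.14), whose 2 other probe sets gave 0.09 and 0.32. The other lower ones were LOC4349330 (-2.08 ± 0.41), LOC4352346 (-1.57 ± 0.32) and LOC4343573 (-0.83 ± 0.17). All of these had groups that did not overlap.

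**Figure D3:**
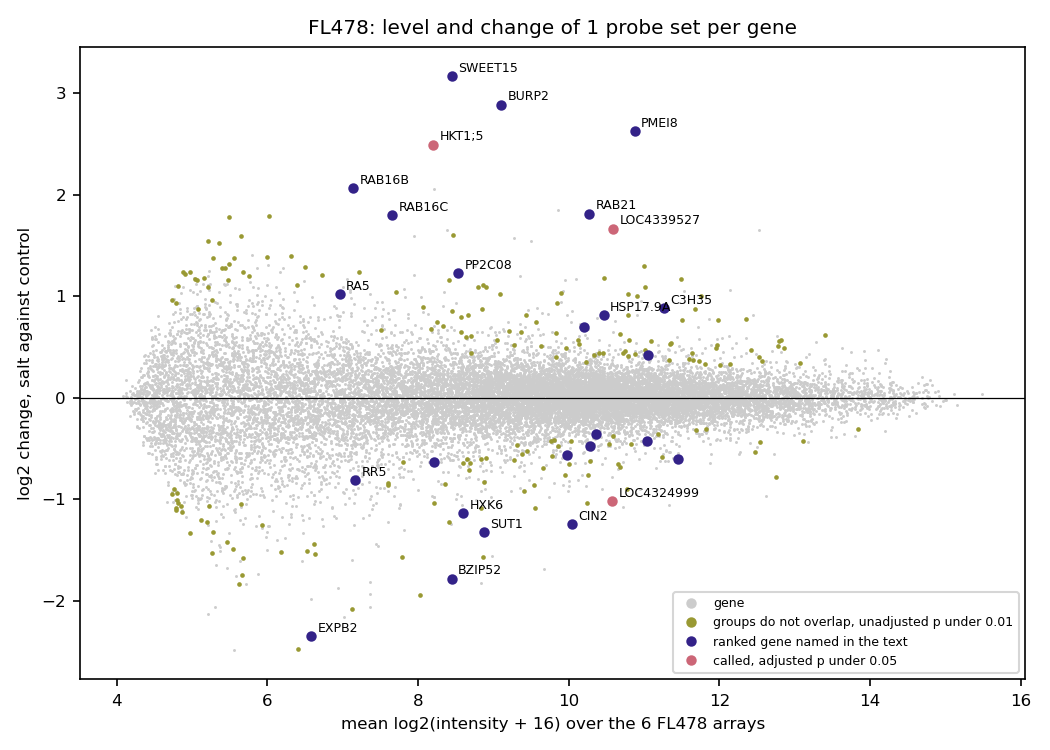
Log2 change of salt against control (vertical axis) against the mean level over the 6 FL478 arrays (horizontal axis), 1 point for each of 17905 genes by its brightest probe set. Red points were called, purple points are ranked genes named in the text, and the spread of changes is widest among dim genes below a level of about 7. HKT1;5, SWEET15, BURP2 and PMEI8 lie highest among the named points.

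Beside HKT1;5, the genes for sodium, potassium and chloride transport showed no general shift. Of 32 measured, 1 was higher (3.1%) and 2 lower (6.25%) at an unadjusted p under 0.05, beside 2.68% and 2.54% of all genes. In this list 11 lay above 0, and the median change was -0.08. HAK1, a potassium uptake transporter, lay at 7.35, 6.24 and 6.91 in the controls and at 5.43, 5.98 and 6.10 under salt, a change of -0.99 ± 0.39, and its second probe set gave -1.27 ± 0.42. AKT1, an inward potassium channel, differed by -0.58 ± 0.26 with overlapping groups, and by -0.38 without salt replicate 2. CBL4, the calcium sensor of the SOS pathway, differed by -0.62 ± 0.30, and its partner kinase CIPK24 by 0.06 ± 0.16. The bright HAK5 differed by -0.11 ± 0.13. The annotation used here named no probe set for SOS1 or NHX1.

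Water channels and osmolyte genes each held a single larger change. Among 25 aquaporin genes, PIP1-3 of the plasma membrane lay at 8.95, 8.996 and 10.18 in the controls and at 10.70, 9.48 and 11.42 under salt, a change of 1.16 ± 0.50 with overlapping groups, and of 0.72 without salt replicate 3. The 24 others had unadjusted p-values above 0.05, so PIP1-3 was the 1 higher gene (4%, beside 2.68% of all genes). The list's median was -0.09. P5CS2, which makes the proline precursor, lay at 7.12, 8.67 and 6.86 in the controls and at 9.27, 9.99 and 8.36 under salt, a change of 1.66 ± 0.52 (limma, adjusted p = 0.879), while its 3 dimmer probe sets gave -0.59 to 0.79. The bright P5CS1 lay at 12.76, 12.90 and 13.02 in the controls and at 13.16, 13.25 and 13.31 under salt, a small change of 0.34 ± 0.10 with groups that did not overlap. These were the 2 of 18 osmolyte genes higher at an unadjusted p under 0.05 (11.1%, beside 2.68% of all genes), and none was lower. BADH1 and BADH2, for betaine aldehyde dehydrogenases, differed by -0.10 ± 0.18 and 0.12 ± 0.17.

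Antioxidant enzyme genes differed little between the groups. Of 24, 19 lay above 0, but this count fell to 8 after centring on the median, where the median of the list was -0.09 and that of all genes -0.12. In the quantile-normalized values the list's median was 0.07. The peroxiredoxins PRXIIF (0.44 ± 0.14) and PRXIIE-1 (0.26 ± 0.10) and the monodehydroascorbate reductase MDHAR5 (0.30 ± 0.11) were the 3 higher at an unadjusted p under 0.05, each with groups that did not overlap, and none was lower. The 3 higher genes made up 12.5% of the list, beside 2.68% of all genes. The catalase CAT-A differed by 0.54 ± 0.43. Of 39 genes for glutathione S-transferases, glutaredoxins and thioredoxins, 1 was higher (2.56%), GST-II at 0.24 ± 0.11, and 2 were lower (5.13%), GRXS2 and GRXC1. The shares over all genes were 2.68% and 2.54%. GRXC1 lay at 10.17, 11.43 and 9.93 in the controls and at 9.19, 9.67 and 7.61 under salt, a change of -1.69 ± 0.74, and of -1.08 without salt replicate 3. The list means of the salt arrays lay below those of the control arrays, with a median change of -0.06.

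Among 43 heat shock protein and chaperone genes, 4 were higher (9.30%) and 0 lower at an unadjusted p under 0.05, beside 2.68% and 2.54% of all genes, with a median change of -0.01. Without 1 array the count of 4 ran from 2 to 4. The disaggregase gene CLPB1 lay at 8.42, 8.41 and 8.41 in the controls and at 9.16, 8.80 and 9.90 under salt, a change of 0.88 ± 0.26. HSP17.9A lay at 9.64, 10.38 and 10.15 against 10.75, 10.59 and 11.26. Salt replicate 3 was the highest array for both, and without it CLPB1 differed by 0.57. The small heat shock protein HSP16.6 differed by 1.03 ± 0.45 and the DnaJ protein DJA6 by 0.33 ± 0.14, while the HSP90-class genes HSP81-1, HSP81-2 and HSP81-3 differed by -0.06 ± 0.16, 0.14 ± 0.12 and 0.14 ± 0.13.

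Of 87 stress transcription factor genes, 3 were higher (3.45%) and 1 lower (1.15%) at an unadjusted p under 0.05, beside 2.68% and 2.54% of all genes. The median change of the list was -0.03. HOX24, a homeodomain-leucine zipper factor, lay at 4.14, 4.61 and 5.79 in the controls and at 5.999, 6.78 and 6.55 under salt, a change of 1.596 ± 0.48. Its controls were near the level of the pseudocount, and the change ran from 0.78 to 2.84 over the alternatives. HSF2, a heat shock factor, differed by 0.89 ± 0.37 near the level of the pseudocount, by 0.53 without salt replicate 3, and its second probe set gave -0.76 ± 0.32, so its probe sets disagreed. BZIP23 and BZIP52, described above, were the others.

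**Figure D4:**
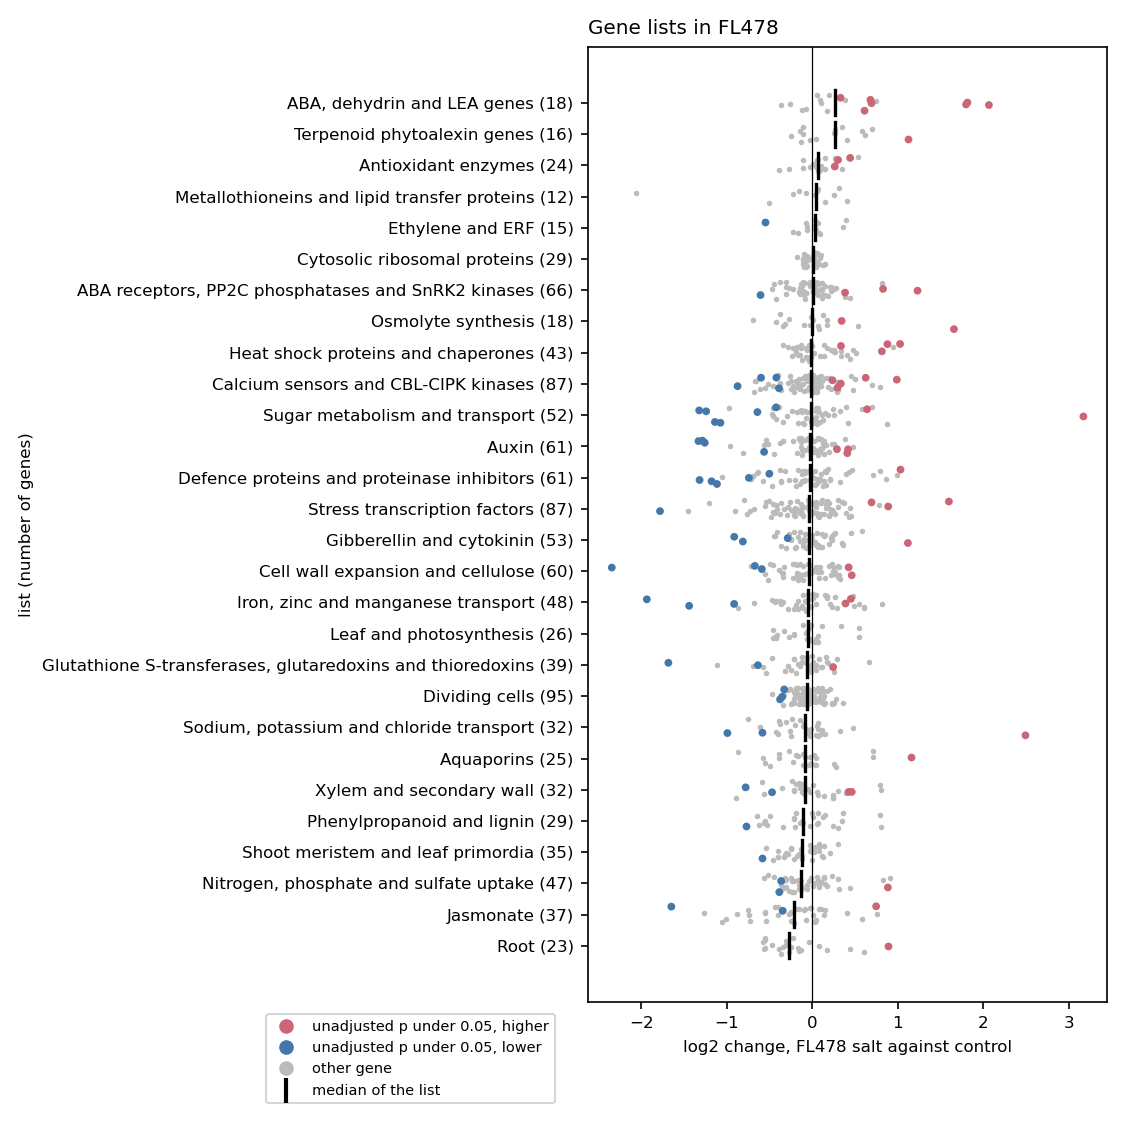
Log2 change of salt against control for every measured gene of the 28 lists with at least 5 genes, ordered by the median (black bar), with the number of genes in parentheses. Red and blue points had an unadjusted p under 0.05. ABA, dehydrin and LEA genes (0.263) and phytoalexin genes (0.259) have the highest medians, and root markers the lowest, -0.27. The phytoalexin median was above that of the ABA list in the values as deposited (0.35 against 0.28). It was so too after centring on the median (0.22 against 0.15).

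Of 61 auxin genes, 3 were higher (4.92%) and 4 lower (6.56%) at an unadjusted p under 0.05, beside 2.68% and 2.54% of all genes. In the same list 9 were separated downward (14.8%, beside 4.86% of all genes) and 3 upward (4.92%, beside 5.26%). IAA4, an Aux/IAA repressor gene, lay at 6.42, 6.52 and 6.74 in the controls and at 5.28, 5.43 and 5.19 under salt, a change of -1.26 ± 0.32, with its other 2 probe sets at -0.65 and -0.18. Without 1 array the higher count ran from 0 to 3 and the lower count from 3 to 7. The auxin carrier PIN5 differed by -1.29 ± 0.43, or by -0.82 without salt replicate 3, and by -2.01 to -0.68 over the alternatives. The higher genes were IAA19 (0.42 ± 0.16), GH3.9 (0.41 ± 0.18) and IAA15 (0.29 ± 0.11). In the gibberellin and cytokinin list, 3 of 53 were lower (5.66%, beside 2.54% of all genes). These were the response regulators RR5 and RR6 (-0.29 ± 0.13) and the cytokinin oxidase CKX4 (-0.91 ± 0.35). CPS2, a diterpene cyclase gene counted there and among the phytoalexin genes, was the 1 higher gene (1.89%, beside 2.68% of all genes).

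Of 60 cell wall genes, 2 were higher (3.33%) and 3 lower (5.0%) at an unadjusted p under 0.05, beside 2.68% and 2.54% of all genes. The expansins EXPB2, EXPB8 (-0.59 ± 0.27) and the expansin-like EXLA2 (-0.67 ± 0.28) were the 3 lower. The second probe set of EXLA2 gave -0.31 ± 0.26, and its first gave -0.36 without salt replicate 3. The 2 higher were the secondary-wall cellulose synthases CESA4, at 10.66, 10.56 and 10.55 against 10.76, 11.15 and 11.13, and CESA7, at 11.04, 10.72 and 11.15 against 11.21, 11.87 and 11.23. Their groups were separated by 0.10 and 0.05, and the changes were 0.42 ± 0.16 and 0.46 ± 0.19. Without salt replicate 2 that of CESA7 was 0.24. The third such synthase, CESA9, differed by 0.24 ± 0.22, and the laccase LAC23 by -0.78 ± 0.26. After centring on the median none of the list was higher at an unadjusted p under 0.05 and 4 were lower.

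Jasmonate genes had a median change of -0.21, with 11 of 37 above 0. At an unadjusted p under 0.05, 1 was higher (2.70%) and 2 lower (5.41%), beside 2.68% and 2.54% of all genes. JAZ12, a jasmonate repressor gene, lay at 11.29, 8.16 and 8.80 in the controls and at 8.84, 6.80 and 7.66 under salt. Replicate 1 was the highest array of each group, the groups overlapped, and the change of -1.65 ± 0.68 shrank to -0.71 at the smallest without 1 array. The list mean was 0.56 in control replicate 1, against -0.09 and -0.07 in the other controls and 0.12, -0.34 and -0.18 under salt, so that array stood apart. Without it 0 genes were lower at an unadjusted p under 0.05, and the count ran from 0, also without salt replicate 2, to 8 without control replicate 2. JAZ3 differed by -0.35 ± 0.15, or by -0.20 without salt replicate 2, and the dim OPR12, of the 12-oxophytodienoate reductase family, by 0.75 ± 0.26, or by 0.43 without salt replicate 1.

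Among genes for metal and nutrient uptake, the nicotianamine synthases differed most. NAS1 and NAS2, neighbours on chromosome 3, make nicotianamine, which chelates iron. NAS1 lay at 7.64, 7.58 and 9.77 in the controls and at 6.46, 5.72 and 6.998 under salt, a change of -1.94 ± 0.65. NAS2 lay at 6.86, 7.80 and 9.83 against 7.03, 6.51 and 6.63, a change of -1.44 ± 0.63. Control replicate 3 was the highest array for both, and at the smallest the changes were -1.23 and -0.61 without 1 array. The dim zinc transporter ZIP1 differed by -0.92 ± 0.38, YSL9 by 0.39 ± 0.16 and MTP3 by 0.45 ± 0.19 (0.27 without control replicate 3 and 0.71 without control replicate 2), which made 2 higher and 3 lower of 48 at an unadjusted p under 0.05. These shares were 4.17% and 6.25%, beside 2.68% and 2.54% of all genes. Of 47 nitrogen, phosphate and sulfate genes, PHR1, the regulator of phosphate starvation, differed by -0.39 ± 0.16 and the glutamine synthetase GLN1-2 by -0.37 ± 0.16, or by -0.21 without control replicate 2. The dim phosphate transporter PHT1-11 was the 1 higher gene, at 0.88 ± 0.31 with overlapping groups, and its 3 other probe sets gave 0.07, -0.10 and -0.17. At an unadjusted p under 0.05 this list held 1 higher (2.13%) and 2 lower (4.26%), beside 2.68% and 2.54% of all genes.

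Calcium and defence genes held differences of both signs. Of 87 calcium sensor and kinase genes, 5 were higher (5.75%) and 4 lower (4.60%) at an unadjusted p under 0.05, beside 2.68% and 2.54% of all genes. Among them were CML8 (0.99 ± 0.40), CBL6 (0.33 ± 0.10), the calcium pump gene ACA5 (0.29 ± 0.11), the calmodulin CAM (-0.39 ± 0.13), CPK12 (-0.60 ± 0.25) and the dim ACA1 (-0.42 ± 0.18). Without 1 array the higher count ran from 2 to 8 and the lower count from 1 to 6, and CML8 differed by 0.65 without control replicate 3 and CPK12 by -0.39 without salt replicate 3. Of 61 defence genes, 1 was higher (1.64%) and 5 lower (8.20%), beside 2.68% and 2.54% of all genes. The lower count ran from 2 to 7 without 1 array. The chitinase Cht1 lay at 8.65, 9.92 and 9.58 in the controls and at 10.45, 10.79 and 10.01 under salt, a change of 1.03 ± 0.29, or of 0.66 without control replicate 1, and the chitinase Cht2 from 6.49, 5.76 and 5.54 to 4.28, 4.42 and 5.13, a change of -1.32 ± 0.42. The 2 other probe sets of Cht2 gave -0.19 ± 0.66 and -0.05 ± 0.32, and its change ran from -2.46 to -0.59 over the alternatives, near the level of the pseudocount. STLP3 differed by -1.18 ± 0.39 (-2.08 to -0.55 over the alternatives) and GLU8 by -0.50 ± 0.19. The 16 phytoalexin genes were all dim, with a mean level under 7 in both groups. Of these, 1 was higher at an unadjusted p under 0.05 (6.25%, beside 2.68% of all genes), CPS2 at 1.12 ± 0.46 (0.46 to 2.46 over the alternatives). The mean of this list was -0.13, -0.10 and -0.13 in the controls and 0.07, 0.02 and 0.27 under salt. Over all 30 lists, 2 had means that were higher in the salt arrays with no overlap, the ABA and phytoalexin lists, and 5 had lower ones with no overlap, those for glutathione S-transferases and redoxins, cell wall, auxin, nutrient uptake and defence. Of all genes taken singly, 10.1% were separated in either direction. Some list means lay close: the lowest control and highest salt array were at 0.022 and 0.0058 for nutrient uptake, and at 0.020 and -0.012 for defence. In the remaining lists, 1 of 15 ethylene genes (6.67%) and 1 of 29 phenylpropanoid genes (3.45%) were lower at an unadjusted p under 0.05. The share over all genes was 2.54%. These were the ethylene-forming oxidase ACO1 (-0.55 ± 0.24, and -0.22 without control replicate 3, its highest array) and LAC23. None of 12 metallothionein and lipid transfer protein genes, 2 flavonoid genes and 1 proton pump gene passed that limit in either direction.

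The means of the marker lists of tissues in the dissection did not separate salt from control arrays. The list mean of dividing-cell genes was 0.08, -0.01 and 0.02 in the controls and 0.02, -0.11 and -0.0010 under salt, with 28 of 95 above 0. The histones H2B.11 (-0.35 ± 0.11) and H2B.7 (-0.38 ± 0.17) and the cyclin CYCA2-1 (-0.33 ± 0.13, or -0.21 without control replicate 1) were the 3 lower at an unadjusted p under 0.05. The 3 made up 3.16% of the list, beside 2.54% of all genes. Shoot meristem and leaf primordium genes had a median change of -0.12, with 11 of 35 above 0 and YAB6, a YABBY factor, at -0.59 ± 0.21. Root markers had a median of -0.27, with 5 of 23 above 0, and 12 of them were dim, with a mean level under 7 in both groups. Their list means were 0.0052, 0.0040 and 0.26 in the controls against -0.12, -0.27 and 0.12 under salt. Taken singly, 4 root markers were separated downward (17.4%) and 1 upward (4.35%), beside 4.86% and 5.26% of all genes. Leaf and photosynthesis markers ranged over arrays from -0.30 in control replicate 2 to 0.24 in control replicate 3, with the salt arrays between them, and 0 of 26 had an unadjusted p under 0.05. In all 5 tissue lists the means of the salt and control arrays overlapped, and their part in the results above was not tested. The shares separated downward and upward were 7.37% and 2.11% for dividing-cell genes and 8.57% and 0% for shoot meristem genes. No leaf marker was separated. Of 32 xylem and secondary wall genes, CESA4 and CESA7 were the 2 higher (6.25%) and BC1L2 and LAC23 the 2 lower (6.25%). The shares over all genes were 2.68% and 2.54%, and the median of this list was -0.09. In it 4 genes were separated downward (12.5%) and 3 upward (9.38%), beside 4.86% and 5.26% of all genes. No ribosomal protein gene of 29 passed an unadjusted p under 0.05.

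**Figure D5:**
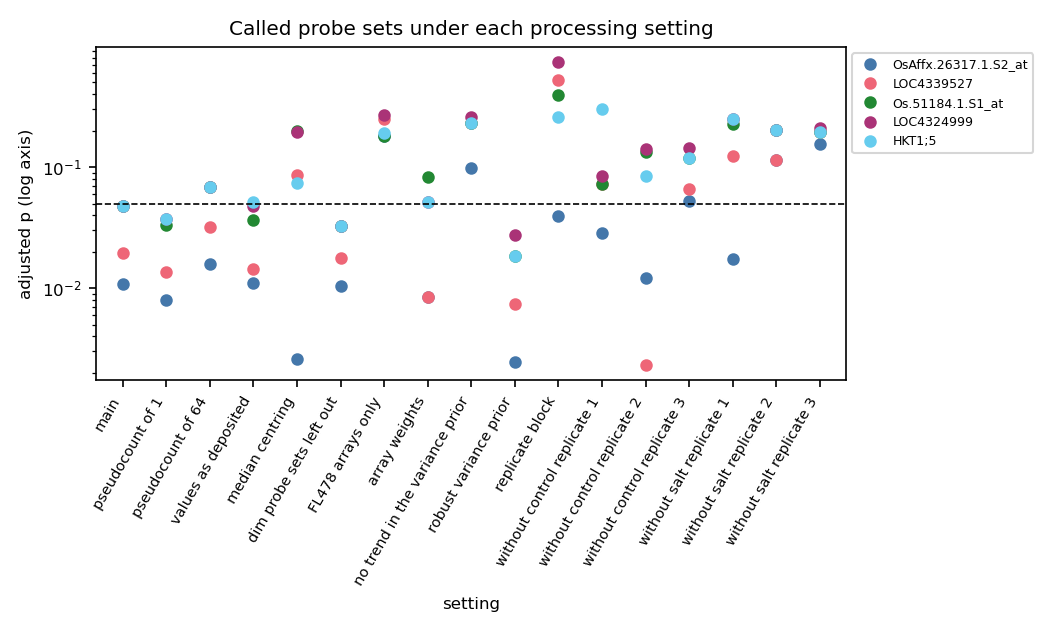
Adjusted p (log axis) of the 5 called probe sets in the main fit and in the 16 other ways to process or fit the arrays, with the call threshold of 0.05 as a dashed line. OsAffx.26317.1.S2_at stays under it in 11 of the 16, LOC4339527 in 7, Os.51184.1.S1_at and LOC4324999 in 4 each and HKT1;5 in 3.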

How the data were processed

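RNA from crown and growing point was hybridised to rice arrays. The authors deposited a linear signal intensity for each probe set, and the submitters' processing notes name GCOS 1.2. How background was corrected and probes were summarised is not given in the sources used here. No detection calls came with the table. Without 123 control probe sets, log2(intensity + 16) was quantile normalized over the 11 arrays. Each of 57258 probe sets was fitted as 4 group means with limma 3.58.1 (R 4.3.3, 7 residual degrees of freedom, variance prior following the mean), with two-sided p-values adjusted by Benjamini-Hochberg over all probe sets and called under 0.05. A log2 difference understates the change of dim probe sets.

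Of the probe sets, 22436 had 1 gene, 95 several and 34727 none in the array's annotation, which gave 17905 genes, 2457 with a descriptive name. RefSeq assembly ASM3414082v1 served for names and neighbours. The brightest probe set stood for a gene. The members and lists were chosen with earlier results of these data known. The patterns of the 30 lists, with 1129 genes, were written after the annotation was read, and class III peroxidases and promoter motifs were not analysed here. The text names every called probe set, 12 genes with a descriptive name and 4 with a locus number per direction among the separated genes with a mean level of at least 7 in the higher group, up to 3 genes per list and direction at an unadjusted p under 0.05, and salt genes known beforehand. Other list members beside them were named after their values were seen. The number of arrays limits the precision. Tables and plots used Python 3.11.15, pandas 2.3.3 and matplotlib 3.10.9. The 16 alternatives covered the pseudocount, scaling, a filter, the fit and leaving out each FL478 array.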

Additional observations from a re-analysis of the deposited data

How the results depend on the processing

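The number of called probe sets, 5 in the main setting, depended on most choices. It was 8 with a pseudocount of 1 and 2 with 64, 1 with each array centred on its median, 0 when FL478 was fitted alone (where 2736 had an unadjusted p under 0.05), 2 with array weights, 1 without a trend in the variance prior and 8 with a robust prior. It ran from 0 to 2 without 1 array: 0 without control replicate 3, salt replicate 2 or salt replicate 3, where 3475, 2919 and 2864 probe sets had an unadjusted p under 0.05. No pairing is stated, and same-numbered control and salt arrays did not deviate together (r of -0.02, -0.02 and 0.03 across probe sets). With the replicate number as a block, in a fit of the 6 FL478 arrays alone, 1 probe set was called, beside 0 in that fit without the block. At an unadjusted p under 0.05, 884 probe sets were higher after centring on the median, and 685 were higher and 540 lower when dim ones were left out. Separated probe sets numbered 1708 higher after centring on the median, 1233 higher and 1057 lower without dim ones, and 5695 to 6971 higher and 5177 to 6140 lower without 1 array, where fewer arrays have to be apart. The 95 probe sets named by rule kept their direction in each of the 16 alternatives that measured them. Most had been chosen from these same arrays by separated groups or a low p, so this outcome was largely set by the choice. Other genes beside them were not followed. Of 30 list medians, 15 kept their sign in the 9 alternatives run for lists. Centring the lists on the median was added after seeing the data. Probe sets near the pseudocount have poorly determined changes.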
